A study of Mus musculus with 6 samples.

Results

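The SPARC family is a group of secreted, calcium-binding glycoproteins of the extracellular matrix that share a follistatin-like domain, and most members also carry an EF-hand calcium-binding domain. SPARC (osteonectin) binds fibrillar and basement membrane collagens and is abundant in connective tissues that lay down matrix. SMOC proteins add thyroglobulin-type domains, bind heparan sulfate and are known as extracellular modulators of BMP signalling, testicans carry glycosaminoglycan chains, and FSTL1 binds BMP and TGF-beta family ligands. The 8 genes described here, Smoc1, Smoc2, Sparc, Sparcl1, Spock1, Spock2, Spock3 and Fstl1, were taken by name from the 38924 genes of the count files. The family was selected on the CPM of Smoc2, which had been seen at a lower level in mutant cartilage, so the genotype values of Smoc2 are a description and carry no test. The same contrast stood behind the choice of the whole family, and no count of its members is read as a result.

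RNA was sequenced from laser-captured anterior nasal septum cartilage of C57BL/6 mouse embryos at embryonic day 14.5. The 3 wild-type libraries are labelled WT, and the 3 libraries of the Apert syndrome model carry the genotype Fgfr2+/S252W; EIIA-Cre, in which 1 allele of the receptor gene Fgfr2 has the S252W substitution. EIIA-Cre is active in nearly all cells of the early embryo, so the mutation is not limited to cartilage. Whether the WT embryos carried Cre is not given in the labels, and with laser-captured tissue a lower share of a cell type and less RNA per cell cannot be told apart.

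Library totals ran from 6760510 to 10834744 counts. The mitochondrial genome took 28.8% to 30.2% of counts in WT and 34.3% to 40.4% in Apert libraries. With mitochondrial, ribosomal RNA and globin genes removed, the log2 fold changes (Apert minus WT) of Smoc2 and Smoc1 were -1.23 and -0.96. With these genes kept they were -1.21 and -0.94, or -1.37 and -1.10 with libraries scaled by their totals alone. Any other part of the mitochondrial share in the differences below was not tested. Of 19 cartilage markers 18 passed the expression filter, led by the type II collagen gene Col2a1 at 19695 ± 4244.8 CPM in WT (counts relative to TMM-scaled library totals; SD, n = 3). Skeletal muscle and epithelial markers summed to at most 1.62 and 2.59 CPM in any library.

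Among the members, Smoc2 (ENSMUSG00000023886) lies on the plus strand of chromosome 17 from 14279506 to 14404790 in mm10, and Smoc1 (ENSMUSG00000021136) on the plus strand of chromosome 12 from 81026808 to 81186414. Sparc (ENSMUSG00000018593) lies on chromosome 11 from 55394500 to 55420080 and Sparcl1 (ENSMUSG00000029309) on chromosome 5 from 104079111 to 104114088, both on the minus strand. Fstl1 (ENSMUSG00000022816) is on the plus strand of chromosome 16 from 37776873 to 37836514. The testican genes are Spock1 (ENSMUSG00000056222; chromosome 13, 57429295 to 57907587, minus), Spock2 (ENSMUSG00000058297; chromosome 10, 60106219 to 60135198, plus) and Spock3 (ENSMUSG00000054162; chromosome 8, 62951009 to 63357103, plus). All 8 sit on different chromosomes, so no members are neighbours. Sparcl1 shares exons with Gm26703 on the opposite strand, which counting without strand cannot separate, and no other member shares exons with another gene. In GENCODE M21 transcripts, no window of 100 bases, the read length, was shared between Smoc2, Smoc1, Sparc, Sparcl1 or a testican gene and any other gene, while Fstl1 had 5 of 4957 windows in common with Xdh.

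RefSeq promoter windows of 300 bases (GRCm38.p6, from 250 bases before to 50 bases after the start) were matched by symbol for Sparc, Fstl1, Spock1, Spock2 and Spock3. The windows of Sparc, chr11:55420031-55420330 on the minus strand, and Fstl1, chr16:37776805-37777104 on the plus strand, are printed because these genes give most of the family's counts and differ in base composition. Each runs 5′ to 3′ along the gene's strand, and capitals mark CpG dinucleotides.
Sparc: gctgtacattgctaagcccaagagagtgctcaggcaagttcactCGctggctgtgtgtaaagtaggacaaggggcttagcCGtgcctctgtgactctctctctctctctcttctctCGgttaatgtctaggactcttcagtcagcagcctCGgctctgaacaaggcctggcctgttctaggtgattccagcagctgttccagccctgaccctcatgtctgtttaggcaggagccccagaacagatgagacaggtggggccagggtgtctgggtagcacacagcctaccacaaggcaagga
Fstl1: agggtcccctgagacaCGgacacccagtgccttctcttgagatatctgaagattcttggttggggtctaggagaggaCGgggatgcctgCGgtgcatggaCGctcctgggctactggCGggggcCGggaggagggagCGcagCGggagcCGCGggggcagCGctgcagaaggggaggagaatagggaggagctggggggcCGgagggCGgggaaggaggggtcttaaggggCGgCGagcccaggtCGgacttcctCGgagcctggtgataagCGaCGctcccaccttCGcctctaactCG
The Sparc window holds 4 CpG at an observed-to-expected ratio of 0.174 and has a GC content of 55.3%. The Fstl1 window holds 21 CpG at a ratio of 0.684 and has a GC content of 66.7%. Over all 32851 promoter windows the median ratio was 0.384 and the median GC content 52.7%. The letters GGGCGG, the GC box, were found on either strand 2 times in Fstl1 and 0 times in Sparc, and 35.7% of all windows held them. The letters TATAAA, searched on both strands, were in neither window and in 13.6% of all windows. Spock1, which had at most 4 counts in any library, has the window richest in CpG of the 5 genes, with 29 at a ratio of 0.944.

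Levels between genes were compared as CPM per kb of exon length. Sparc was the highest member in every library, with 186, 258 and 213 CPM per kb in WT replicates 1 to 3. Fstl1 followed at 155, 158 and 141, then Smoc2 at 43.2, 37.1 and 33.7, and Smoc1 at 12.6, 14.4 and 11.8. Sparcl1, which encodes the SPARC-like matrix protein hevin, was at 5.57, 2.57 and 2.75 CPM per kb in WT, and Spock2, the gene of testican-2, at 2.16, 2.06 and 1.31. The first 6 genes kept this order in all 6 libraries, and the WT ranges of neighbours in the order did not overlap down to Spock2. Sparc and Fstl1 in WT were at the 99.6th and 99.3rd percentile of all 13333 tested genes in level per kb, Smoc2 at the 95.5th, Smoc1 at the 81.0th, Sparcl1 at the 45.8th and Spock2 at the 27.2nd.

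Spock1 and Spock3, which encode testican-1 and testican-3, were near the limit of detection, did not pass the expression filter and were not tested. For Spock1 the WT libraries held 2, 4 and 0 counts (replicates 1 to 3), and the Apert libraries 0, 2 and 1. A count of 0 allows up to 3 counts, which is 0.325 CPM in WT replicate 3 and 0.297 CPM in Apert replicate 1. Spock3 had 2, 6 and 8 counts in WT and 3, 8 and 9 in Apert libraries. The ranges of these genes per kb overlapped in WT, so their order is not resolved at this depth. The counted exons of Spock1 total 1320 bases and end at 57907587. Its RefSeq promoter window begins at 57908283, outside these exons. Its GENCODE M21 transcripts hold 8361 distinct windows of 100 bases, so much of the sequence annotated there was not counted. The low counts of Spock1 and its level per kb hold for the counted exons only.

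**Figure D1:**
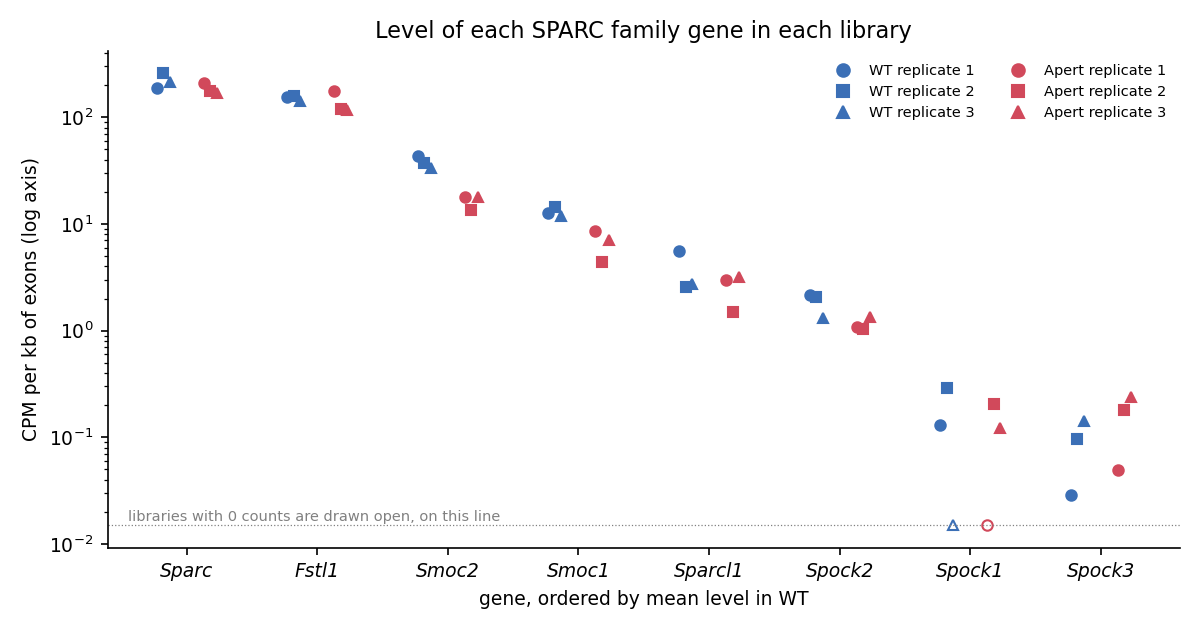
Level of each of the 8 genes in each library, as CPM per kb of exons on a log axis, with WT in blue, Apert in red and a marker shape for each replicate. Sparc and Fstl1 lie above 100 CPM per kb in all 6 libraries, Smoc2 and Smoc1 lie lower in every Apert library than in every WT library, and Spock1 and Spock3 lie below 0.30.

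Smoc2 encodes a matricellular protein whose domains combine those of SPARC with thyroglobulin-type repeats. Its levels in replicates 1 to 3 of WT were 122, 105 and 95.5 CPM, and those in replicates 1 to 3 of Apert 51.1, 38.2 and 50.2 CPM. Every Apert library was below every WT library, and the lowest WT value was 1.87 times the highest Apert value. The WT libraries averaged 108 ± 13.6 CPM and the Apert libraries 46.5 ± 7.17 CPM (SD, n = 3 each), which is 43.2% of the WT mean. On the log2 scale this is a difference of -1.21 (standard error 0.17, 95% interval -1.57 to -0.85). These are the values that led to the choice of the family. After correction for GC content the log2 fold change was -1.21 again, and across the 20 alternatives it ran from -1.37 to -1.10.

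Smoc1, the closest relative of Smoc2 in domain make-up and a gene mutated in human eye and limb malformation, was at 44.2, 50.2 and 41.1 CPM in WT replicates 1 to 3. In Apert replicates 1 to 3 it was at 30.2, 15.5 and 24.6 CPM. The groups did not overlap, and Apert replicate 2 was the lowest, as it was for Smoc2. The means were 45.2 ± 4.62 and 23.5 ± 7.43 CPM (SD, n = 3 each), and the log2 fold change of -0.94 (standard error 0.22, 95% interval -1.41 to -0.47) missed the threshold (adjusted p = 0.0821 over all genes by the quasi-likelihood test of edgeR). Over the alternatives the log2 fold change ran from -1.21 to -0.72 and the adjusted p from 0.00163 to 0.323. The adjusted p was 0.00847 with DESeq2, 0.0397 with libraries scaled by their totals, 0.00163 with no expression filter and 0.0104 without Apert replicate 1. With edgeR it was 0.204, 0.281 and 0.184 without WT replicate 1, 2 and 3. It was 0.323 and 0.256 without Apert replicate 2 and 3. Without Apert replicate 2, its lowest library, the log2 fold change of Smoc1 was -0.72. Corrected for GC content, the log2 fold change of Smoc1 was -0.77 (edgeR adjusted p = 0.277).

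Per kb, Smoc2 was 3.42, 2.59 and 2.87 times as high as Smoc1 in WT (replicates 1 to 3) and 2.08, 3.04 and 2.52 times as high in Apert. This ratio overlapped between the genotypes, with means of 2.96 ± 0.42 and 2.55 ± 0.48 (SD, n = 3 each). The ratio of Sparc to Smoc2 did not overlap: it was 4.31, 6.95 and 6.31 in WT and 11.6, 13.0 and 9.55 in Apert libraries. Sparc and Fstl1 together gave 87.6% to 90.4% of the family's counts in WT and 92.4% to 94.7% in Apert. These ratios contain the Smoc2 value that led to the choice and are descriptive.

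**Figure D2:**
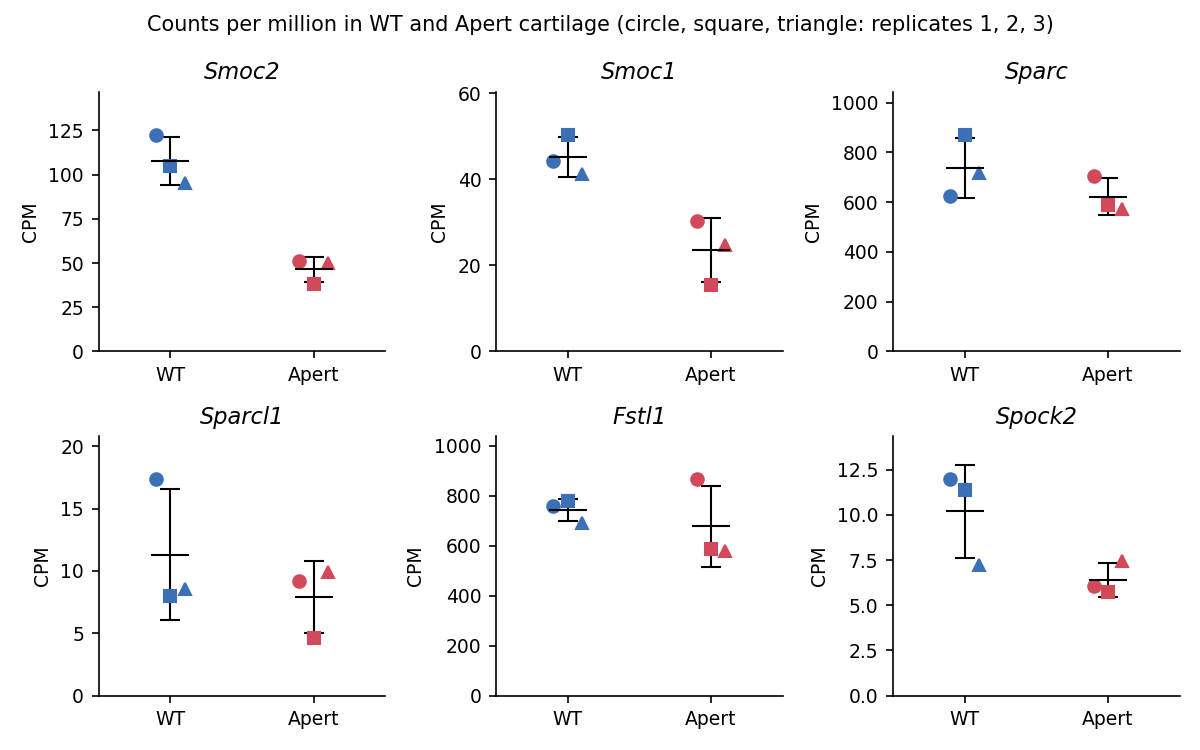
CPM of the 6 members that passed the expression filter, by genotype, with each replicate as a point and the mean with its SD (n = 3) in black; each axis starts at 0. Smoc2 and Smoc1 are separated between the genotypes, and the other 4 genes overlap.

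Sparc, the collagen-binding founder of the family, had WT levels of 626, 869 and 716 CPM and Apert levels of 706, 589.6 and 570.4 CPM (replicates 1 to 3). Apert replicate 1 lay inside the WT range and the other Apert libraries just below it. The log2 fold change was -0.24 (standard error 0.15, 95% interval -0.55 to 0.06; edgeR adjusted p = 0.554). It was -0.13 with GC correction, -0.11 without WT replicate 2 and -0.38 without Apert replicate 1.

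Sparcl1 had WT levels of 17.3, 8.0 and 8.55 CPM and Apert levels of 9.22, 4.63 and 9.88 CPM (replicates 1 to 3). Only WT replicate 1 lay above all Apert libraries. The log2 fold change of -0.52 (standard error 0.36; edgeR adjusted p = 0.631) went to -0.06 when that library was left out. Hevin is also made by endothelial cells, whose 12 markers summed to 19.1, 34.2 and 19.3 CPM in WT replicates 1 to 3. Most of this sum was Eng, at 17.5 CPM in WT on average, which shares exons with Ak1 and Fpgs. The defining endothelial markers Cdh5 and Cldn5 averaged 0.13 and 0.064 CPM in WT, and the part of endothelial cells in the Sparcl1 values was not tested.

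Fstl1, whose product binds BMP ligands and is needed for tracheal cartilage, was at 760.2, 778 and 692 CPM in WT replicates 1 to 3. In Apert replicates 1 to 3 it was at 865, 589 and 578 CPM, so that the highest and the lowest library were both Apert. The log2 fold change was -0.13 (standard error 0.15, 95% interval -0.46 to 0.19; edgeR adjusted p = 0.795), and leaving out 1 library moved it to -0.38 without Apert replicate 1, -0.05 without Apert replicate 2 and -0.04 without Apert replicate 3.

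Spock2, the only testican gene with enough counts to test, had WT levels of 12.0, 11.4 and 7.25 CPM and Apert levels of 6.05, 5.72 and 7.45 CPM (replicates 1 to 3). WT replicate 3 lay within the Apert range. Its counts per library were low, from 42 to 138, and the log2 fold change was -0.68 (standard error 0.31, 95% interval -1.34 to -0.02; edgeR adjusted p = 0.430). Corrected for GC content, the log2 fold change of Spock2 was -0.47 (standard error 0.30, edgeR adjusted p = 0.784).

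Of the 13333 genes tested, 0.45% were called at an adjusted p under 0.05 (60 genes, 53 higher and 7 lower in Apert; 0.398% and 0.0525%). When libraries were scaled by their totals, 17 were higher and 24 lower, and the overall median went from 0.01 to -0.14. With GC correction 4 were higher and 1 lower, and with libraries left out in turn the calls ran from 0 to 119 higher (0 without WT replicate 3, 119 without Apert replicate 1) and from 0 to 110 lower. Without WT replicate 3, where no gene was called by edgeR, 1376 genes had an unadjusted p under 0.05. Smoc2 is left out of the counts that follow, since its lower level led to the choice of the family. Of the other 7 members 5 were tested, and none of them was called. Of those 5, Smoc1 and Spock2 had an unadjusted p under 0.05. The median of their log2 fold changes was -0.52, and all 5 were negative under the reported settings and under each of the 20 alternatives, the 3 other scalings included; over all tested genes the median was 0.01 and 48.9% were negative. Apert libraries lay below all WT libraries for Smoc1 and overlapped them for the other 4, while 7.7% of all tested genes lay below, 8.92% above and 16.6% in either direction. The alternatives refit the same libraries, so the shared sign is no further evidence. Estimates were as small as -0.04 for Fstl1 and -0.06 for Sparcl1 when a library was left out. A shared sign was also seen elsewhere: all 6 tested glia markers were negative, while 10 of 14 tested perichondrium and fibrous mesenchyme markers were positive. The 5 genes came from the same contrast as Smoc2, and the counts of members are a description.

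**Figure D3:**
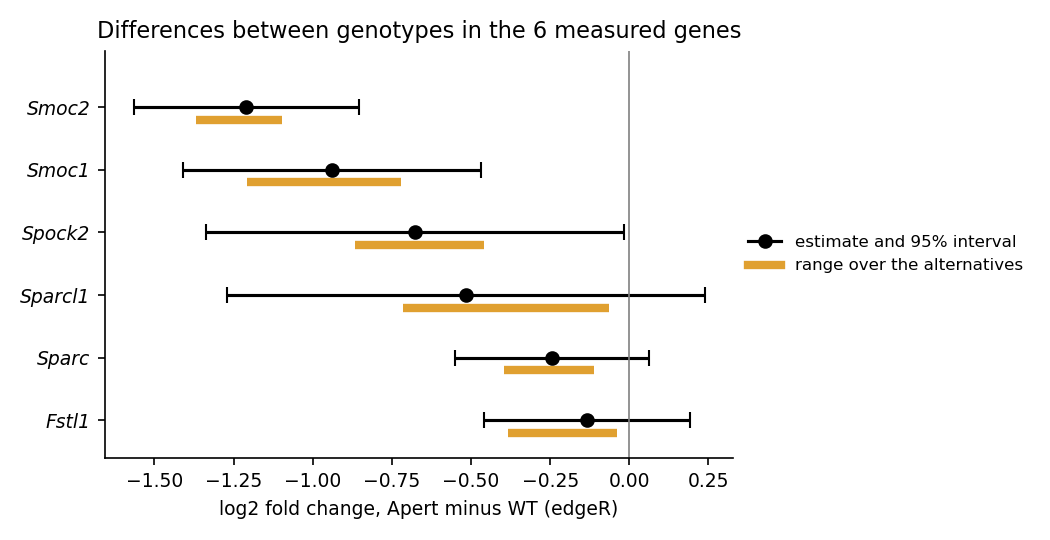
Log2 fold change (Apert minus WT) of the 6 tested members with 95% intervals in black and, in orange, the range of the estimate over the 20 alternatives. The intervals of Sparcl1, Sparc and Fstl1 include 0. Those of Smoc1 and Spock2 lie below 0 but are not adjusted for the number of genes, and neither gene passed the threshold. Smoc2 led to the choice of the family, so its interval is descriptive.

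Genes that share domains with the family were taken next. Of 10 other follistatin-domain genes 4 were tested and none was called in either direction (median log2 fold change -0.17). Wfikkn2, which encodes a secreted inhibitor of GDF8 and GDF11, averaged 4.94 ± 0.58 CPM in the WT and 1.15 ± 0.73 CPM in the Apert libraries without overlap (SD, n = 3 each; log2 fold change -2.03, edgeR adjusted p = 0.110). Fst, the activin antagonist follistatin, was at 1.06 and 2.14 CPM, Tmeff1 at 47.5 and 38.1 CPM, and the heparan sulfate proteoglycan gene Agrn at 85.5 and 83.4 CPM. Of 12 other thyroglobulin-domain genes 4 were tested and none was called (median 0.03). Igfbp5, an IGF-binding protein gene strongly expressed here, averaged 2747.5 ± 561 CPM in the WT and 1405.1 ± 532 CPM in the Apert libraries (SD, n = 3 each; log2 fold change -0.97, edgeR adjusted p = 0.0518). The basement membrane genes Nid2 and Nid1 had log2 fold changes of 0.53 and 0.15, and Igfbp4 of -0.09. In this list 1 gene was called lower with limma-voom, with scaling by totals or by the upper quartile, with no expression filter, with abundant genes removed, with thinned counts, and without Apert replicate 1. Its median was -0.13 with scaling by totals, -0.16 without Apert replicate 1 and 0.51 with DESeq2, which also holds genes that the filter removed.

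Other matricellular genes had 10 of 17 members tested and none called, with a median log2 fold change of -0.01. Tnc, the tenascin-C gene, averaged 152 ± 30.8 CPM in the WT and 231 ± 3.11 CPM in the Apert libraries (SD, n = 3 each; edgeR adjusted p = 0.0914). Postn and Thbs2 had log2 fold changes of 0.60 and 0.97 and Thbs1 of -0.30, with overlapping groups. Of the 10 tested genes 5 had positive and 5 negative log2 fold changes.

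The BMP pathway, on which SMOC proteins and FSTL1 act outside the cell, had no called gene at any level. Of 10 ligand genes 8 were tested (median log2 fold change 0.14), with Bmp5 at 0.58, Bmp4 at 0.50, Gdf7 at 0.48 and Bmp6 at -0.65. Among 8 of 9 tested receptor and co-receptor genes (median -0.05), the co-receptor genes Rgmb and Rgma were at -1.20 (adjusted p = 0.149) and -0.75 (adjusted p = 0.169), Bmpr1b at -0.44 and Bmpr2 at 0.36, and these 4, those with the smallest p, did not overlap between the genotypes. The other 4 receptor genes overlapped, and 16.6% of all tested genes did not. Of 13 signal transducers and target genes 12 were tested (median -0.01). The BMP target genes Id1 and Id2 had log2 fold changes of 0.34 (standard error 0.48) and 0.19 (standard error 0.28), Msx1 of 0.76 and the pseudoreceptor gene Bambi of 0.29. Of 11 secreted BMP antagonists 9 were tested (median 0.02). Chrdl1 went from 46.3 ± 3.78 to 32.5 ± 4.30 CPM without overlap (SD, n = 3 each; edgeR adjusted p = 0.282). Bmper, Nog and Grem1 had log2 fold changes of -0.52, -0.74 and 1.22 and did not pass.

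SPARC binds collagens, and all 13 collagen genes listed were tested, with a median log2 fold change of 0.10. Col3a1, the gene of type III collagen, rose, with 279 ± 35.1 CPM on average in the WT and 452 ± 15.8 CPM in the Apert libraries (SD, n = 3 each; edgeR adjusted p = 0.0322), and the other 12 did not pass. No collagen was called with scaling by totals, with GC correction, or without WT replicate 1 or 3 or Apert replicate 2 or 3, and 3 were called without Apert replicate 1. Col5a2 and Col1a1 had log2 fold changes of 0.70 and 0.84, and Col9a2 of -0.43. Proteases and inhibitors linked to testicans and SPARC had 11 of 14 members tested and none called, with a median of -0.31. Mmp2, Mmp15 and Ctsb were at -0.42, -0.99 and -0.32, and the inhibitor gene Timp3 at -0.55 (edgeR adjusted p = 0.231). Receptors and crosslinking enzymes of SPARC had 9 of 10 tested and none called, with a median of -0.06. Tgm2, the transglutaminase gene, was at -0.60, Itga5 at -0.32, Mrc2 at -0.20 and Itgb1 at 0.14.

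Markers of cartilage and of other cell types were measured in the same libraries as the lower Smoc2 and Smoc1 values. The 19 cartilage markers summed to 38575 to 49681 CPM in WT and 39685 to 43035 CPM in Apert, and none of the 18 tested was called (median log2 fold change -0.19). Chad was at -0.63 (edgeR adjusted p = 0.0695), Sox9 at -0.67 (0.125), Acan at -0.48 (0.322) and Matn3 at 0.85 (0.197). Markers of perichondrium and fibrous mesenchyme summed to 3646 to 4199 CPM in WT and 4728 to 5409 CPM in Apert, without overlap. Of 14 tested of 16 listed, Col3a1 and Ogn rose (log2 fold changes 0.69 and 0.93; edgeR adjusted p = 0.0322 and 0.0363), and 12 did not pass, Aspn (1.37) and Tnc (0.61) among them. The list had 10 positive and 4 negative log2 fold changes, with a median of 0.52. No gene of this list was called with scaling by totals, with GC correction, or without WT replicate 1 or 3 or Apert replicate 2 or 3. Without WT replicate 2 it was 1, and without Apert replicate 1 it was 5. Glia markers summed to 365 to 434 CPM in WT and 276 to 328 CPM in Apert, also without overlap, and none of 6 tested was called (median -0.36). Sox10, Erbb3 and S100b had log2 fold changes of -0.61, -0.35 and -0.38. The part of perichondrial and glial tissue in the Smoc2 and Smoc1 values was not tested.

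Endothelial markers (4 of 12 tested, median 0.01) summed to 19.1 to 34.2 CPM in WT and 27.4 to 32.4 CPM in Apert, with Pecam1 at -0.49, Eng at 0.50, Sox18 at -1.64 and Egfl7 at 0.56. Osteoblast markers summed to 83.3 to 87.0 CPM in WT and 74.1 to 96.9 CPM in Apert, nearly all of it Runx2, the single tested gene of 8 (log2 fold change 0.01), and Ibsp, Bglap2 and Dmp1 had 0 counts in all libraries. Leukocyte markers (2 of 8 tested) were led by Cd68 at 0.88 and Csf1r at 0.17, and neuron markers (2 of 8 tested) by Gap43 at 0.60 and Elavl4 at -0.01. Erythroid genes (6 of 10 tested, median 0.06) summed to 51.1 to 93.0 CPM in WT and 58.9 to 70.8 CPM in Apert and included Hba-x at -0.82, Hbb-bs at 0.47, Hbb-y at 0.22 and Alas2 at -0.06. No epithelial or skeletal muscle marker passed the expression filter, and none of the markers named in this paragraph was called. Nid2, Tnc, Bmp4, Bmp5, Rgma, Ctsb, Timp3, Tgm2, Runx2, Eng, Egfl7, Csf1r and Alas2 share exons with another gene, so their values are uncertain under counting without strand.

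**Figure D4:**
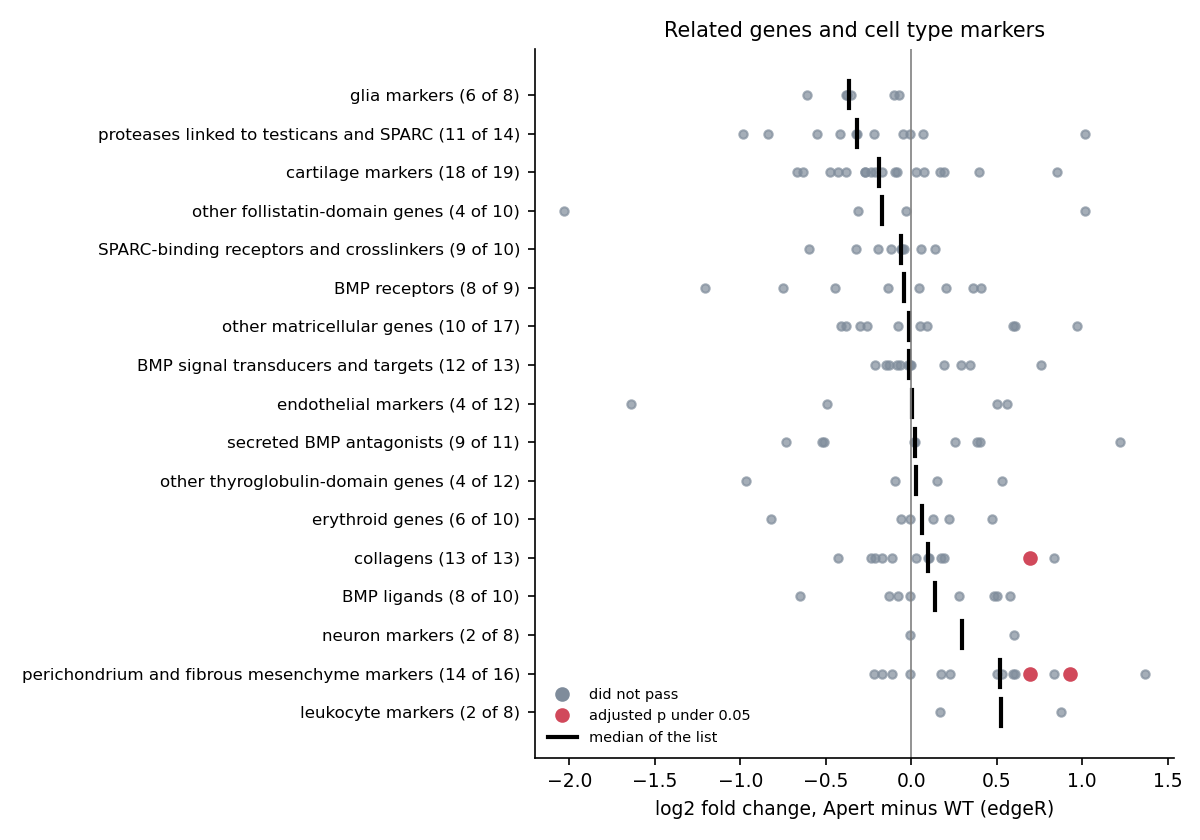
Log2 fold change (Apert minus WT) of each tested gene in the lists of related genes and cell type markers with at least 2 tested genes; black bars are list medians, red points passed edgeR at an adjusted p under 0.05, and the numbers give tested of listed genes. Col3a1, which is in both the collagen and the perichondrium list, and Ogn are the called genes.

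Around the Smoc2 start, 5 genes had their start within 500 kb, and 2 of them had a mean of at least 1 CPM. The matricellular gene Thbs2, 414.8 kb downstream, averaged 12.2 ± 3.08 CPM in the WT and 24.0 ± 17.8 CPM in the Apert libraries (SD, n = 3 each; log2 fold change 0.97, edgeR adjusted p = 0.325). Its mean was thus higher in Apert where that of Smoc2 was lower. Its groups overlapped, however, and the Apert libraries differed widely from each other (SD 17.8), so no direction is read from it. The predicted gene Gm3355 was at 3.23 and 2.06 CPM (edgeR adjusted p = 0.712). Within 500 kb of Smoc1, 12 genes were tested and none was called, with 8 positive and 4 negative log2 fold changes.

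Genes with a profile most like that of Smoc2 were sought by the root mean square difference of centred log2 CPM over the 6 libraries, among 11624 other genes. The 5 most similar were Bcar1 (0.13), which encodes the adhesion scaffold p130Cas, Prag1 (0.14), Kdm4b (0.14), a histone demethylase gene, Irf2bp1 (0.15) and Fmc1 (0.15). Bcar1 had WT levels of 17.3, 16.0 and 15.5 CPM and Apert levels of 8.73, 5.17 and 8.75 CPM (replicates 1 to 3). None of the 5 passed the test, with edgeR adjusted p from 0.0834 for Irf2bp1 to 0.526 for Fmc1. Smoc1 had a difference of 0.22 and stood at place 22, ahead of Spock2 at place 163 (0.34), Sparcl1 at 1302 (0.49), Sparc at 2174 (0.55) and Fstl1 at 2418 (0.56). The closest genes are lower in every Apert library by construction, since Smoc2 is. The places of the other members run in the order of their log2 fold changes above for the same reason. They are therefore no separate evidence that a member follows Smoc2.

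**Figure D5:**
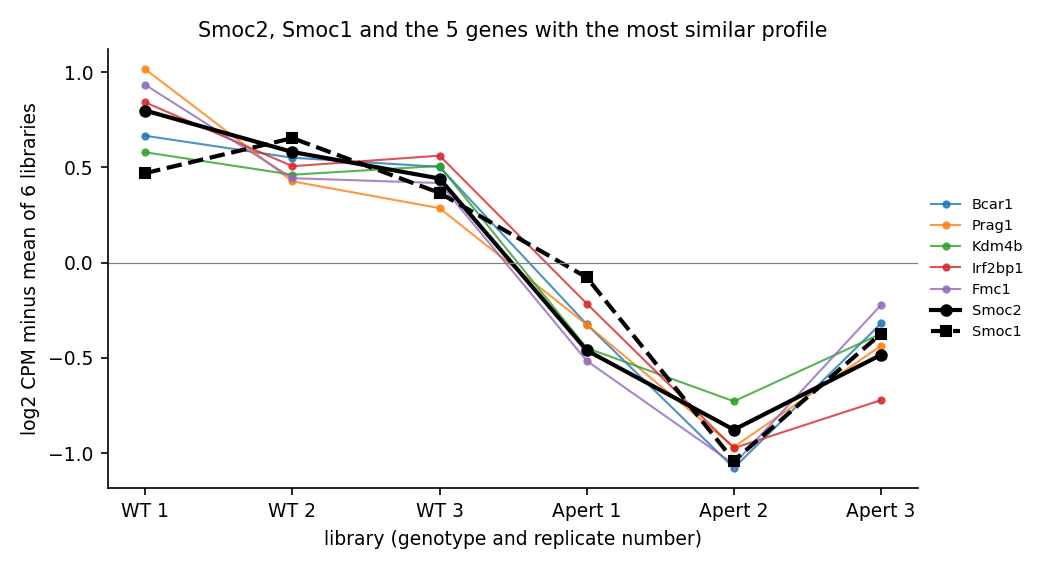
Log2 CPM of Smoc2, Smoc1 and the 5 most similar genes in each library, minus the gene's mean over the 6 libraries; lines only join the points of a gene and replicates have no order. All 7 genes lie above 0 in the WT libraries and below 0 in the Apert libraries, and Smoc1 in Apert replicate 1 lies closest to 0.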

How the data were processed

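Per the file headers, the authors deposited whole-number fragment counts per Ensembl gene, made with featureCounts 1.4.4 from read pairs over exons without strand, on Ensembl release 75 (GRCm38). The tools cutadapt and STAR 2.5.2b and the build mm10 are listed in the submitters' processing notes. Gene length is the exon length in the deposited files, per the file headers. Per the labels' protocols, libraries came from 15 ng of amplified RNA, and no molecular identifiers are described, so limits cover counting error only. The 6 libraries come from separate mice.

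Symbols were matched for 37607 of 38924 genes. Counts were tested in R 4.3.3 with edgeR 4.0.16 (filterByExpr, TMM, glmQLFTest, Benjamini-Hochberg over all genes tested). A standard error is the log2 fold change divided by the root of F. GC content came from GENCODE M21 transcripts. Alternatives used DESeq2 1.42.0, limma 3.58.1 and, for GC and length curves, mgcv 1.9.3. The script was tested on simulated data.

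The members, the 20 lists of related genes and markers, and the rules were chosen with earlier results of these data known. Named are all members, up to 4 genes of each list with the smallest p, genes of at least 1 CPM within 500 kb of Smoc2, and the 5 genes most like Smoc2 (prior count 2), passing over predicted genes. Col2a1 was named after its values were seen, and so were Cdh5, Cldn5 and list members named only as having 0 counts.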

Additional observations from a re-analysis of the deposited data

How the results depend on the processing

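The 6 tested members had negative log2 fold changes under all 20 alternatives, which refit the same libraries and are no independent evidence. Calls are given as genes higher and genes lower in Apert. They were 151 and 55 with DESeq2, 154 and 93 with no expression filter, 17 and 24 with scaling by library totals, and 105 and 24 at an adjusted p of 0.1. They were 4 and 1 with GC correction and 49 and 11 with counts thinned to the shallowest total. With libraries left out in turn, calls ran from 0 to 119 higher and from 0 to 110 lower, and the number of members past the threshold, a count that includes the gene used for selection, from 0 to 2. No gene was called without WT replicate 3, where edgeR gave 1376 genes with an unadjusted p below 0.05. The number of members past the threshold was 1 as reported, which is Smoc2 itself. It was 2, with Smoc1 added, with DESeq2, no filter, scaling by totals, the threshold of 0.1, the replicate block and without Apert replicate 1. It was 0 without WT replicate 3 and without Apert replicate 2, and it was 1 in the other settings. Without Apert replicate 2, calls among all genes were 2 higher and 0 lower. Smoc2 was selected on this same contrast, so these member counts are a description and no test of the family. The cause of these shifts was not tested.

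With the replicate number as a block, 128 genes were higher and 44 lower, and Smoc1 had an adjusted p of 0.0258. With the replicate block and GC correction they were 67 and 11, and Smoc1 had 0.0989. The labels do not say that a number marks a shared litter or day. Deviations of same-numbered libraries from their group means correlated at 0.19, 0.02 and 0.09 across genes, and not every library correlated best with its own number, so results are reported without it.

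The order of levels had 6 of 8 genes at the same place by Apert means, and 6 to 8 with a WT library left out, with only Spock1 and Spock3 exchanged. For the lists, 661 of 720 numbers of calls were within 1.5 times and 327 of 360 medians within 1 SD of the reported value. Nearly all reported numbers of calls were 0, so this agreement is mostly of lists without calls. The collagen and perichondrium lists held the calls, and their numbers changed in many settings, as given above. Low counts limit Spock1 and Spock3, at most 9 in any library, and the counted exons of Spock1 do not reach its RefSeq start.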
